A study of Arabidopsis thaliana with 6 samples.

Results

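The genes described here are 53 Arabidopsis genes that kept 2 copies in every karyotype studied and whose transcripts lay lower in trisomy 2 than in the diploid wild type, while in tertiary trisomy 2 they stayed near the wild-type level. They were chosen from 5469 kept 2-copy genes (0.969%), which lie on Chr.1, Chr.4 or Chr.5, or on Chr.3 past AT3G20040, and have a single-gene probe set with a mean log2 signal of at least 6.28 over the 6 arrays. A member had a mean log2 ratio of trisomy 2 to wild type of -0.585 or less, which is 1.5-fold lower. It also had both trisomy 2 arrays below both wild-type arrays, and a tertiary mean within 0.3 of wild type on the log2 scale. AT5G37670, AT1G26800 and AT1G66080 were left out by name, and of these only AT5G37670 otherwise met the rule. The rule was set on the same arrays that are described, so the ratios of members between karyotypes are descriptions, and no support is read from them.

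Trisomy 2 (AAA) plants carry 3 intact copies of Chr.2. Tertiary trisomy 2 (AAa) plants carry 2 intact copies and a translocated chromosome with the aur2-1 T-DNA allele, which joins Chr.2 up to AUR2 to the part of Chr.3 before AT3G20040. Wild type (WT) is diploid Col-0, and all groups share the Col-0 background. Each group has 2 arrays of rosette leaf RNA, with no added treatment, from 26-d-old plants grown at 22°C in 16 h of light and 8 h of dark. RNA was combined from 21 to 35 plants. Trisomic plants descend from selfed aur2-1/+ plants, and were picked by their round leaves and then genotyped, so leaf shape differed between the trisomics and WT by selection. The sources do not say whether replicate arrays stem from separately grown plants, so p-values measure only the spread between these arrays, which may be technical.

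An extra chromosome raises the dose of the genes it carries, and products of those genes, such as transcription factors and subunits of complexes, can change the level of genes elsewhere in the genome. Such responses of genes whose own copy number is unchanged are called trans effects. In a primary trisomic the whole chromosome is in excess, whereas in a tertiary trisomic the extra chromosome is made of parts of different chromosomes, so the genes in excess are not the same.

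Each value below is the array signal, a linear brightness, scaled so that the median kept 2-copy gene is equal on all arrays, at its WT level. Arrays of a group correlated at 0.983 to 0.986 on the log2 scale over the kept genes, and arrays of different groups at 0.961 to 0.972. For a check of the labelled tissue, LHCB4.1 and PSAN of the photosynthetic apparatus read from 17004 to 40382 on all arrays, but none of the 6 leaf mesophyll markers listed for the check had a named probe set. The lists of vascular, flower and senescence markers had no named probe set either. The only root marker of 5 with a probe set lay under the filter, at 9.92 and 25.4 in AAA, 47.4 and 29.8 in AAa, and 2.87 and 3.14 in WT. The single guard cell marker with a probe set read 181 and 202 in AAA, 214 and 192 in AAa, and 230.1 and 212 in WT. The single dividing cell marker read 124 and 119.7 in AAA, 189 and 115 in AAa, and 198 and 130.3 in WT, and the single trichome marker 125 and 137 in AAA, 177 and 179.6 in AAa, and 183 and 152 in WT. RNA quality can be read from control probe sets at the 3' and 5' ends of 1 transcript. For actin the log2 of 3' over 5' signal was 3.30 and 3.74 in AAA, 2.86 and 3.52 in AAa, and 3.51 and 3.90 in WT. For GAPDH it was 0.25 and 0.32 in AAA, 0.48 and 0.07 in AAa, and 0.04 and 0.08 in WT. For ubiquitin it was 1.68 and 1.56 in AAA, 1.14 and 1.35 in AAa, and 1.64 and 1.86 in WT. The part of these in the members' values was not tested. In leaf RNA, fewer cells of a type and less RNA per cell cannot be told apart.

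The members were lower in AAA by a narrow margin. Their median log2 ratio of AAA to WT was -0.68, or 62.3% of the WT signal, and the ratios ran from -1.01 to -0.59 (49.8% to 66.5% of WT). Over all kept 2-copy genes the median was -0.01 (SD over genes 0.32). Only AT4G00955 was at least 2-fold lower. The standard error of a member's ratio was 0.11 to 0.28. The 2 arrays of a group differed by a median of 0.13 in AAA, 0.13 in AAa and 0.13 in WT (log2), against 0.15, 0.15 and 0.17 over all kept genes. The rule asks for AAA and WT arrays that lie apart, which favours genes with small differences, so nothing is read from this. The gap between the higher AAA array and the lower WT array was 0.21 to 0.87, smallest in AT1G43770 and largest in AT4G00955.

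**Figure D1:**
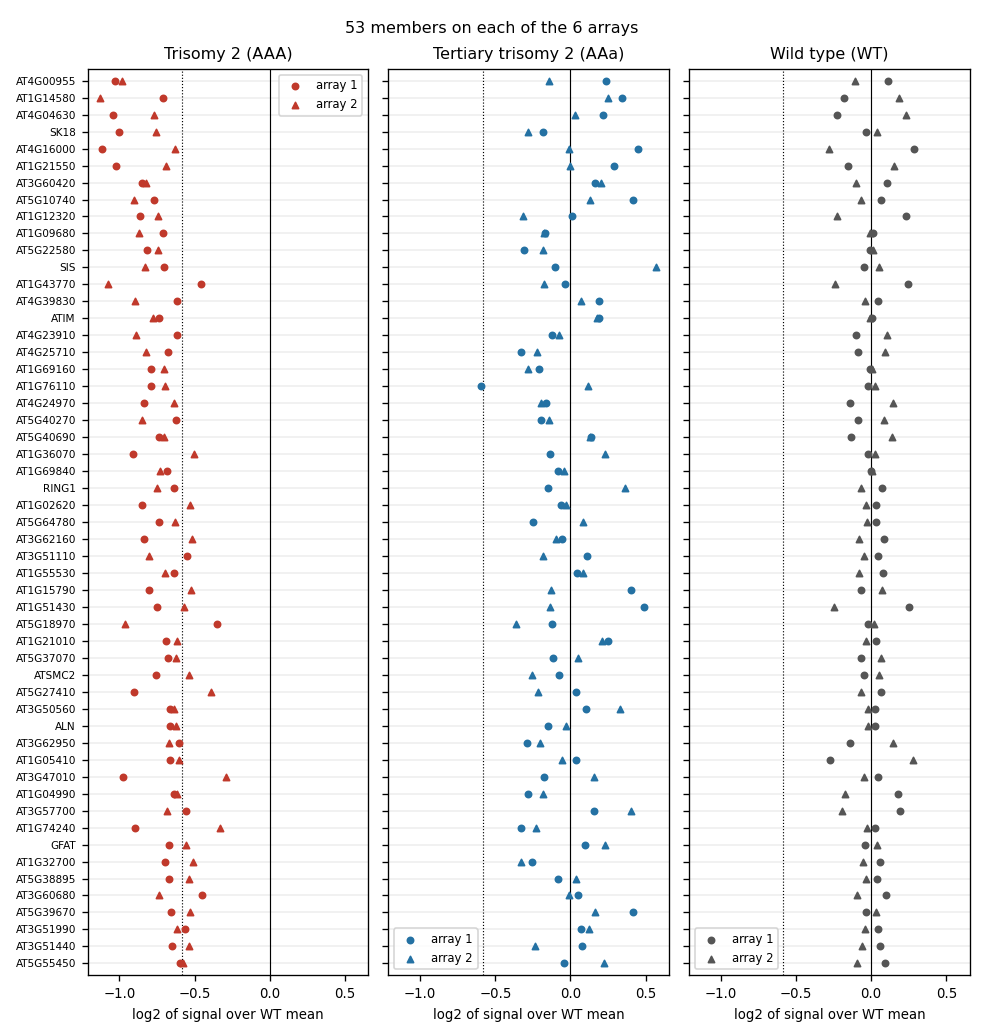
Log2 signal of each of the 53 members relative to its WT mean (x axis), with 1 row a gene in the order of the AAA to WT ratio. Panels show AAA, AAa and WT, circles are array 1 and triangles array 2, and the dotted line marks the 1.5-fold limit of the rule. The AAA points all lie left of 0, whereas the AAa points lie on both sides of it.

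In the limma fit across all genes 32 members were called lower in AAA than in WT (adjusted p below 0.05) and 21 were not. Of all kept 2-copy genes 2.54% were called lower in that comparison, and nothing is read from the members' larger share, since they were chosen on it. With an array left out, limma called 7 members without AAA array 1, 10 without AAA array 2, 15 without WT array 1, 12 without WT array 2, and 27 without either AAa array. All 53 had an unadjusted p below 0.05, and adjusted p ran from 0.000165 to 0.211. Against AAa the members had a median log2 ratio of -0.65 in AAA (-1.21 to -0.31), and limma called 31 lower, with a background of 5.69%. This contrast is fixed by the rule as well, and the count fell to 17 where AAA array 1 was left out, to 20 where AAa array 1 was, and to 17 where AAa array 2 was. Of the members 28 were called lower than both WT and AAa, 4 lower than WT alone, 3 lower than AAa alone and 18 in neither. In 52 members both AAA arrays lay below both AAa arrays, as in 27.6% of all kept genes. The exception was AT5G18970, with 160.1 and 104.5 in AAA, 187 and 158.7 in AAa, and 201 and 206 in WT, where the higher AAA array passed the lower AAa array. Both AAA arrays lay below both WT arrays in all 53, by the rule, and in 25.3% of all kept genes.

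In AAa the members lay on both sides of WT. Their median log2 ratio of AAa to WT was -0.02 (-0.29 to 0.30), with 24 means above and 29 below the WT mean and 19 within 0.1 of it. Limma called 0 of the 53 in this comparison, where 12.8% of all kept genes were called in either direction. At an unadjusted p below 0.05 there was 1, AT1G32700, and limma called 1 member without AAa array 2 and 1 when arrays were centred on all expressed genes. The limit of 0.3 sets these values, and a p that misses the threshold does not show that the levels are equal. Both AAa arrays lay above both WT arrays in 10 members, below them in 15, and overlapped them in 28. Over all kept genes the AAa arrays lay apart above WT in 26.7% and apart below in 27.5%.

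**Figure D2:**
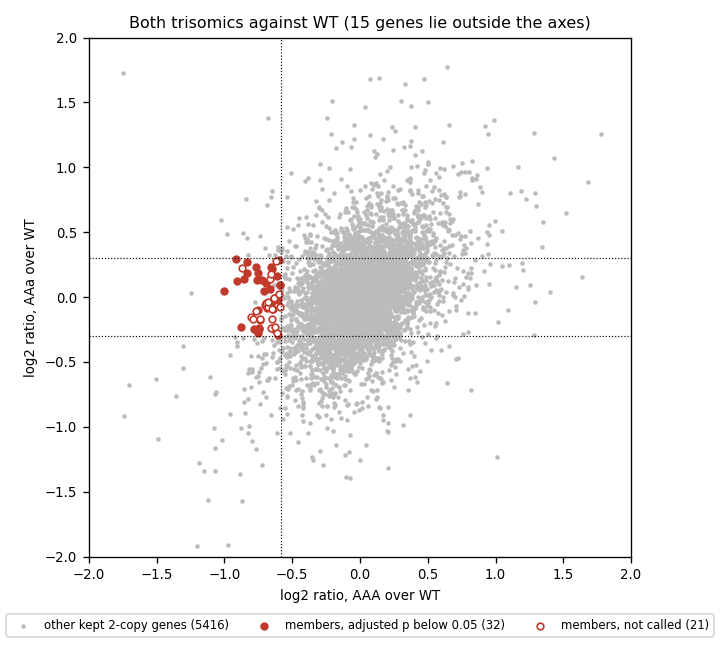
Log2 ratio to WT in AAA (x axis) and in AAa (y axis) for all kept 2-copy genes, with the 53 members in red (filled where adjusted p is below 0.05 for AAA against WT). Dotted lines mark the limits of the rule, and 15 genes lie beyond the axes. The members lie at the left end of the band between the horizontal lines, beside AT5G37670 and the 3 genes with overlapping arrays.

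The same form of rule gave other numbers when mirrored. It found 118 genes lower in AAa alone (2.16% of kept genes), 59 higher in AAA alone (1.08%) and 124 higher in AAa alone (2.27%). By the fold and with arrays apart, 49 genes were lower than WT in both trisomics. Of the 155 genes that lay 1.5-fold lower in AAA with arrays apart (2.83%), the members and AT5G37670 are those that stayed near WT in AAa. A further 3 genes met the fold and the AAa limit with overlapping arrays, and AT1G55760, AT1G72950 and AT5G59170 are named here after their values were seen.

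Just inside the fold limit stood AT3G51440 (log2 ratio of AAA to WT -0.59) and AT5G55450 (-0.59), and just outside it AT4G18460 (-0.58) and AT1G09520 (-0.58). At the AAa limit AT1G32700 (log2 ratio of AAa to WT -0.29) and AT1G14580 (0.30) were inside, and AT5G56460 (-0.31) and AT5G02540 (-0.31) outside. In AAA the last 2 had log2 ratios to WT of -0.92 and -0.86, lower than most members.

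The annotation used gives a name to 7 members. The other 46 appear in it by locus only and are given without a role. Of the 7 named members, SK18 and RING1 belong to the ubiquitin system, which tags proteins for breakdown. SK18 (AT1G10230) is an SKP1-like protein, a family of adaptors that link F-box proteins to SCF ubiquitin ligases. Its signal was 110.3 and 131 in AAA, 195 and 181 in AAa, and 215 and 226 in WT. It had the lowest AAA ratio among the named members (log2 -0.88, SE 0.20), and its AAa arrays lay between those of AAA and WT. RING1 (AT5G10380), a RING finger ubiquitin ligase, was the brightest member, with 3473 and 3222 in AAA, 4866 and 6956 in AAa, and 5678 and 5150.3 in WT. Its AAA signal was 61.9% of WT (log2 -0.69, SE 0.14), and its AAa arrays lay on either side of the WT arrays and differed by 0.52 on the log2 scale.

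ATIM (AT5G52910) and ATSMC2 (AT3G47460) belong to families that act on chromosomes. ATIM is the plant relative of TIMELESS, which in animals helps keep DNA replication forks stable. It read 132 and 128 in AAA, 251 and 248 in AAa, and 221 and 219 in WT (log2 ratio of AAA to WT -0.76, SE 0.18). The arrays of each group differed by at most 0.04 on the log2 scale, and AAa stood above WT on both arrays. ATSMC2 is an SMC protein, a family of ATPases that fold chromosomes and hold them together. It was much dimmer, with 59.5 and 69.3 in AAA, 95.4 and 84.4 in AAa, and 97.2 and 104 in WT (log2 -0.65, SE 0.28). Both of its AAA values lay under the filter level of 77.7, and it was not called.

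ALN (AT4G04955) and GFAT (AT3G24090) are enzymes of nitrogen and amino sugar metabolism. ALN, allantoinase, opens the ring of allantoin when purines are broken down to recover nitrogen. Its signal was 267 and 274 in AAA, 382 and 414 in AAa, and 430.1 and 416 in WT (log2 ratio of AAA to WT -0.64, SE 0.15). The AAA arrays stood well apart, and the AAa arrays just below WT. GFAT makes glucosamine 6-phosphate from fructose 6-phosphate and glutamine, the entry into amino sugar synthesis. It read 168 and 182 in AAA, 286 and 313 in AAa, and 260.4 and 275 in WT (log2 -0.61, SE 0.17), with AAa above WT on both arrays. SIS (AT5G02020), named salt induced serine rich, read 234 and 214 in AAA, 354 and 564 in AAa, and 368 and 393 in WT (log2 -0.76, SE 0.19). Its AAa arrays differed by 0.67 on the log2 scale, from under both WT arrays to above them.

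The largest difference of all members was in AT4G00955, at 49.8% of WT. It read 110.3 and 114 in AAA, 265 and 203 in AAa, and 242 and 209 in WT (log2 ratio of AAA to WT -1.01, SE 0.20). AT1G14580 followed with 186 and 139 in AAA, 384 and 361 in AAa, and 267 and 345 in WT (log2 -0.92, SE 0.19). It had the widest separation of the trisomics among the members (log2 ratio of AAA to AAa -1.21), because AAa lay above WT on both arrays. AT4G04630 had 84.9 and 103 in AAA, 203 and 178 in AAa, and 149 and 205 in WT (log2 -0.90, SE 0.23). AT4G16000 had 75.2 and 105 in AAA, 223 and 162 in AAa, and 198 and 134 in WT (log2 -0.87, SE 0.26), and was not called. Its arrays differed within every group, by 0.48 in AAA, 0.46 in AAa and 0.56 in WT (log2).

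Among the 12 lowest, AT3G60420, AT5G22580 and AT1G21550 were the brightest. AT1G21550 read 276 and 348 in AAA, 685 and 561 in AAa, and 505 and 625 in WT (log2 ratio of AAA to WT -0.86, SE 0.16). AT3G60420 read 1414 and 1445 in AAA, 2858 and 2941 in AAa, and 2739.9 and 2378 in WT (log2 -0.84, SE 0.11). In AT1G21550 and AT3G60420 the AAA arrays lay far below all others, and in AT3G60420 the adjusted p was the smallest of all members. AT5G10740 read 103 and 94.1 in AAA, 234 and 192 in AAa, and 184 and 168 in WT (log2 -0.83, SE 0.21), with AAa above WT on both arrays. AT1G12320 read 78.4 and 85.1 in AAA, 144 and 115 in AAa, and 167 and 122 in WT (log2 -0.81, SE 0.25). AT1G09680 read 89.7 and 80.3 in AAA, 130.9 and 130.04 in AAa, and 148 and 146 in WT (log2 -0.79, SE 0.23). These last 2 are dim and were not called. Their AAA arrays lay below the WT arrays by the rule, and below the AAa arrays as in 52 members. AT5G22580 completes the 12 with SK18 and SIS: it read 912 and 958 in AAA, 1299 and 1418 in AAa, and 1595 and 1616 in WT (log2 -0.78, SE 0.12).

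**Figure D3:**
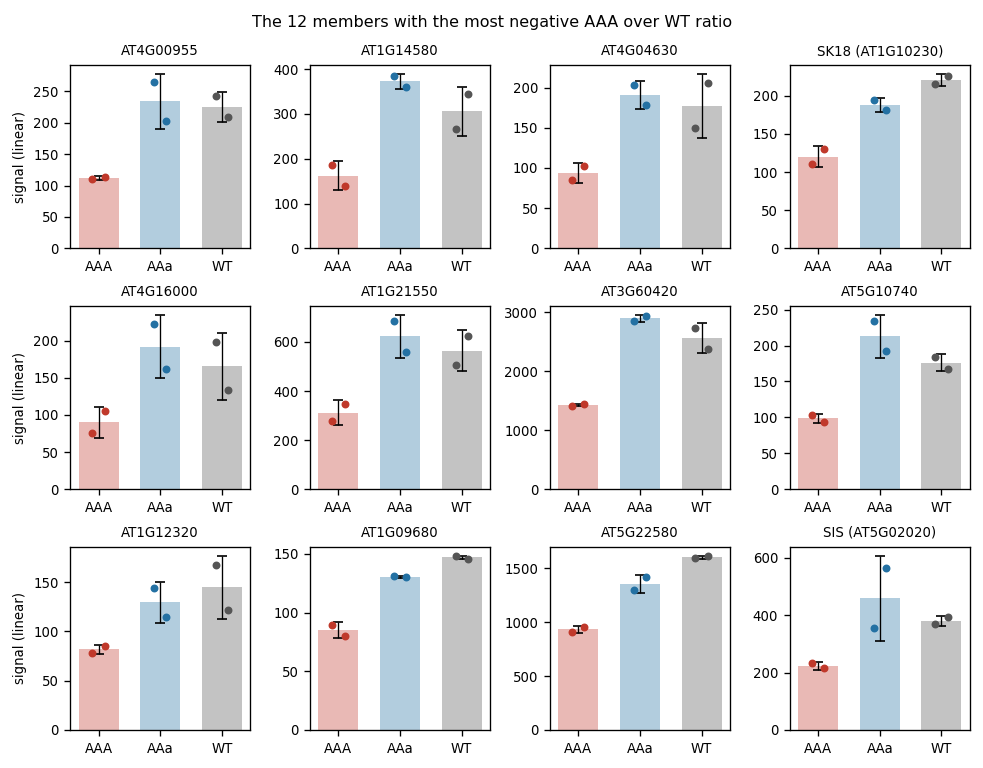
Centred signal (linear y axis from 0) of the 12 members with the lowest ratio of AAA to WT, in AAA, AAa and WT. Bars are means, error bars the SD of the 2 arrays, and points the arrays. In each panel both AAA points lie under both WT points, and AT4G00955 has the AAA bar at 49.8% of WT.

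In the 10 members with both AAa arrays above WT, AAA was the lowest and AAa the highest karyotype. Their log2 ratios of AAa to WT were 0.09 to 0.30, and those of AAA to AAa -1.21 to -0.69. AT1G14580, ATIM, GFAT, AT3G60420 and AT5G10740 were given above. AT1G21010 read 229 and 241 in AAA, 440.0 and 427 in AAa, and 378 and 362 in WT. AT3G50560 read 414 and 422 in AAA, 704 and 821 in AAa, and 665 and 644 in WT. AT5G39670 read 424 and 463 in AAA, 892 and 748 in AAa, and 653 and 685 in WT. In these 3 the mean AAa signal was 116% to 122% of WT, and their replicate arrays lay close together next to the distance of AAA. AT4G39830 read 177 and 146 in AAA, 309 and 285 in AAa, and 279 and 263 in WT. AT3G51990 read 195 and 188 in AAA, 303 and 315 in AAa, and 298 and 281 in WT, and its AAa arrays passed the higher WT array only narrowly. All 10 were called lower than WT and lower than AAa, beside 2.54% and 5.69% of all kept genes. The 10 were picked on both contrasts, so nothing is read from these calls.

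In the 15 members with both AAa arrays below WT, AAa took a middle place. Their log2 ratios of AAa to WT were -0.29 to -0.06, and those of AAA to AAa -0.65 to -0.31. SK18, ALN, ATSMC2, AT1G09680, AT5G22580 and AT5G18970 were given above. AT1G69840 had the AAa arrays nearest to WT, with 2088 and 2019.6 in AAA, 3158 and 3249 in AAa, and 3336 and 3353 in WT, so that AAa stood at 95.8% of WT. AT1G69160 read 243 and 258 in AAA, 363 and 345 in AAa, and 418 and 421 in WT. AT1G32700 read 1213 and 1381 in AAA, 1649.7 and 1570.4 in AAa, and 2050.0 and 1892 in WT. In AT1G32700 the ratio of AAa to WT was the lowest among the members, and the log2 ratios of AAA to AAa (-0.31) and of AAa to WT (-0.29) were alike in size. AT3G62950 read 395 and 377 in AAA, 490.0 and 520.3 in AAa, and 543 and 661 in WT. AT4G25710 read 115 and 104 in AAA, 147 and 158 in AAa, and 173 and 196 in WT. Like AT1G32700, these last 2 were called lower in AAA than in WT and not called against AAa.

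The 28 members with overlapping AAa and WT arrays held 14 that were called lower in AAA than in WT. Of all kept genes 2.54% were called lower there, and the members were chosen on this contrast. AT1G55530 read 1111 and 1064 in AAA, 1779 and 1833 in AAa, and 1824 and 1635 in WT. AT5G55450 read 3234 and 3288 in AAA, 4762 and 5718 in AAa, and 5221 and 4598 in WT. AT5G37070 read 783 and 811 in AAA, 1153 and 1296 in AAa, and 1195 and 1311 in WT. These 3 are bright, and their AAA arrays differed by 0.02 to 0.06 on the log2 scale. AT1G76110 read 685 and 728 in AAA, 784 and 1282 in AAa, and 1163 and 1202 in WT. Here 1 AAa array lay close to AAA and the other above WT, a difference of 0.71 on the log2 scale, the widest AAa difference among the members, and AAA was not called against AAa.

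Of the dimmer called members with overlapping AAa and WT arrays, AT5G38895 read 291 and 320.1 in AAA, 438 and 475 in AAa, and 475 and 452 in WT. AT5G64780 read 189 and 204 in AAA, 265 and 334 in AAa, and 322 and 308 in WT. AT4G23910 read 229.8 and 189.9 in AAA, 324 and 335 in AAa, and 328 and 378 in WT. In all 3 the AAA arrays lay below both other groups, as in 52 of the 53 members. AT5G40690 read 125 and 128 in AAA, 228 and 227 in AAa, and 189 and 228 in WT. AT1G36070 read 130.3 and 173 in AAA, 223 and 288 in AAa, and 241 and 249 in WT, and its 2 AAA arrays differed by 0.41 on the log2 scale.

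The 16 members not yet given were not called against WT and have no symbol in the annotation. Their log2 ratios of AAA to WT were -0.76 to -0.59, with signals of 54.2 to 184 in AAA, 88.4 to 251 in AAa, and 91.7 to 313 in WT. They are AT1G02620, AT1G04990, AT1G05410, AT1G15790, AT1G43770, AT1G51430, AT1G74240, AT3G47010, AT3G51110, AT3G51440, AT3G57700, AT3G60680, AT3G62160, AT4G24970, AT5G27410 and AT5G40270. The AAA arrays differed by more than 0.5 on the log2 scale in AT1G43770, AT1G74240, AT3G47010 and AT5G27410. Of the 16, AT1G51430 and AT3G57700 were called lower in AAA than in AAa.

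The members were dim next to other kept genes. Their median of mean signals was 189, against 364 over all kept genes, and 25 of the 53 (47.2%) fell in the dimmest of 4 equal brightness bins of kept genes, 14 (26.4%) in the next, 5 (9.43%) in the third and 9 (17.0%) in the brightest. The share of kept genes that lay 1.5-fold lower in AAA with arrays apart was also highest in the dimmest bin, at 4.54%, against 3.15%, 1.76% and 1.90% in the others. The median SE of a ratio was 0.24 in the dimmest bin and 0.12 in the brightest. All 14 members of the brighter 2 bins were called, against 12 of 14 and 6 of 25 in the dimmer 2. Of all kept genes 1.17%, 2.63%, 2.41% and 3.95% were called lower, from the dimmest to the brightest bin. The members were chosen on this contrast, so nothing is read from their larger shares. The median ratio of members was -0.69, -0.69, -0.64 and -0.69 from the dimmest to the brightest bin. In 13 members a deposited AAA signal lay under the filter level of 77.7, in 3 of them on both AAA arrays (AT1G02620, ATSMC2 and AT4G24970), and no AAa or WT signal did. The part of brightness in the members' values was not tested.

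**Figure D4:**
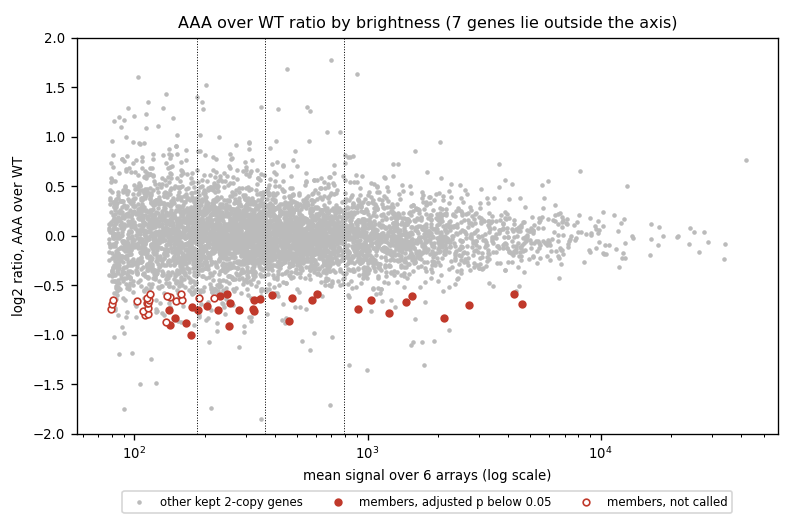
Log2 ratio of AAA to WT (y axis) by mean signal over the 6 arrays (log x axis) for kept 2-copy genes, with members in red (filled where adjusted p is below 0.05) and dotted lines between the 4 bins. The y axis leaves out 7 genes. The 21 members that were not called lie at mean signals of 79.5 to 221, toward the dim end, while called members reach 4583.

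The members were spread over the 2-copy chromosomes. Chr.1 held 19 (1.01% of kept genes there), Chr.3 beyond AT3G20040 held 12 (1.45%), Chr.4 held 8 (0.766%) and Chr.5 held 14 (0.818%). No 2 members lay within 50 locus numbers of each other, a count along the chromosome and not a distance in bases. Within that window 49 members had 153 other kept genes. Their median log2 ratio was -0.06 in AAA and 0.04 in AAa to WT, and in AAA 66.0% were negative, against 51.5% of all kept genes. Limma called 5 of the 153 lower in AAA (3.27%, beside 2.54% of all kept genes). It called 3 of the 153 higher, where 2.72% of all kept genes were called higher. Of the lower calls 0 were left without AAA array 1, 1 without AAA array 2, 1 without WT array 1 and 3 without WT array 2, and without each of AAA array 1, AAA array 2 and WT array 1 the higher calls came to 1. The lower calls came to 9 without centring, 9 when centred on all expressed genes, 8 under quantile normalization, 1 without the filter and 2 without the intensity trend, and the higher calls to 2, 2, 2, 0 and 3 in the same settings. The 5 were AT1G21520 (log2 ratio of AAA to WT -0.74), AT3G47480 (-0.60), AT3G47510 (-0.69), AT3G51130 (-0.48) and AT3G60470 (-0.98). The 3 higher ones were AT1G21050 (0.60), AT5G38890 (0.65) and AT5G38900 (0.69), of which the last 2 are the nearest kept genes to the member AT5G38895. With no strand or transcript coordinates used here, probe sets that could share transcripts between such close loci were not looked for.

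**Figure D5:**
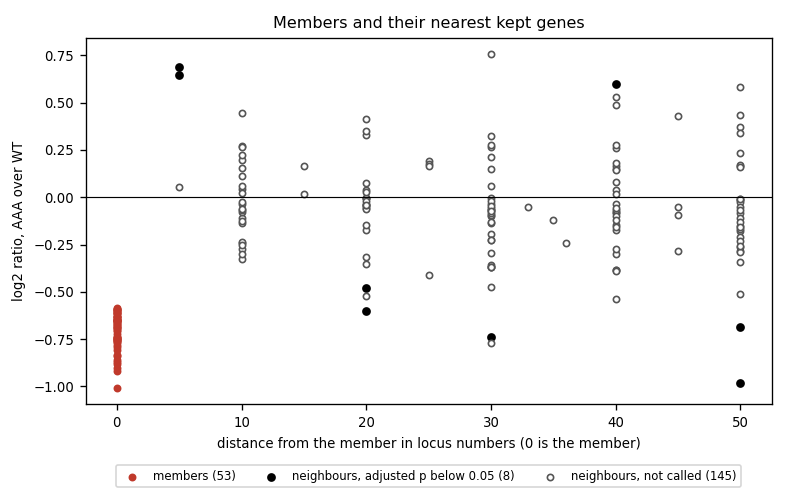
Log2 ratio of AAA to WT (y axis) of the 53 members, at 0, and of the 153 other kept genes within 50 locus numbers of them (x axis). Filled black points are the 8 neighbours with an adjusted p below 0.05, of which 5 lie below 0 and 3 above, and most neighbours lie nearer to 0 than the members.

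A second probe set of a member gives a reading that the rule did not use. Only AT3G60420 had one, and it read 1.35 and 2.70 in AAA, 6.05 and 3.38 in AAa, and 2.85 and 1.31 in WT, far under the filter, so it bears on no comparison. Probe sets without a gene name could not be members. Of 6133 such probe sets above the filter 39 met the rest of the rule (0.636%), as did 1 of 272 that match several genes (0.368%).

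Of 12 lists of pathways that trisomy could touch, 28 of the 219 2-copy genes were kept. A gene could be kept only with a named single-gene probe set above the filter, and 8794 probe sets had no name. A list gene that was not kept may therefore still be expressed. None of the 28 was a member, with AT5G37670, which otherwise met the rule, left out by name. Limma called 5 of them lower and 4 higher in AAA than in WT, beside 2.54% and 2.72% of all kept genes. In AAa it called 6 lower and 7 higher, beside 6.91% and 5.91%. The lists were chosen with earlier results of these data known, so nothing is read from their shares in either trisomic. In AAA the lower calls came to 3 without AAA array 1 and 2 without WT array 2, and the higher calls to 1 without either AAA array and 2 without either WT array. In AAa the lower calls came to 4 without AAa array 1 or either WT array, and the higher calls to 2 without AAa array 1, 3 without AAa array 2 and 2 without WT array 2. Without centring, when centred on all expressed genes and under quantile normalization, the calls in AAa were 7, 7 and 5 lower and 4, 4 and 3 higher, and those in AAA 6, 6 and 6 lower and 3, 3 and 3 higher. Without the filter the calls were 2 lower and 1 higher in AAA, and 3 lower and 1 higher in AAa. Without the intensity trend they were 3 lower and 2 higher in AAA, and 4 lower and 4 higher in AAa. The median log2 ratio of the 28 was -0.04 in AAA and -0.05 in AAa. The heat shock and protein folding list had 7 kept genes, and limma called 3 of them lower in AAA: AT5G48570 (log2 -2.86), AT1G54050 (-2.16) and AT5G25450 (-1.49). All 3 were called lower in AAa too. Hsp70-2, a chaperone of the same list, was called higher in AAa: it read 748 and 656 in AAA, 1686 and 1767 in AAa, and 956 and 874 in WT. Its log2 ratio to WT was -0.38 in AAA (adjusted p = 0.0913, limma) and 0.92 in AAa, and that of AAA to AAa was -1.30. AT5G37670, which the rule leaves out by name, is on this list and read 64.3 and 70.5 in AAA, 128 and 97.8 in AAa, and 139.96 and 94.4 in WT, and was not called.

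The other lists gave 1 call each at most in a direction in AAA. IAA29, an auxin-response repressor, was lower in both trisomics, with log2 ratios to WT of -0.88 in AAA and -1.01 in AAa. UGT78D2, a glucosyltransferase of flavonoids, came closest to the members: it read 364 and 279.6 in AAA, 509 and 478 in AAa, and 477 and 474 in WT. Its AAA arrays lay below all others and it was called lower (log2 -0.58, SE 0.16), just short of the fold limit. CHIL of the same list was higher in AAA (log2 0.62), as were STZ (0.95) of the cold and drought list, XTH19 (1.09) of the cell wall list and WRKY53 (0.54) of the immune list. The lists of the circadian clock, iron and copper, nitrate and nuclear photosynthesis had 7 kept genes together, with limma adjusted p of 0.134 to 0.986 in AAA against WT. In AAa, limma called PSAE-1 (log2 ratio of AAa to WT -0.60) and LHCB4.1 (-0.44) of the photosynthesis list lower. It called higher GI (0.46) of the clock list, COR47 (0.61) and LTI30 (0.91) of the cold and drought list, DFR (0.96) of the flavonoid list, and WRKY53 (0.41) and SAG101 (0.59) of the immune list. The lists of jasmonate and of sugar starvation had no kept gene, which does not show that their genes were not expressed.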

How the data were processed

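Affymetrix ATH1 arrays gave probe set signals, which the authors computed with GCOS and deposited as linear intensity; no source used here gives its version, and the 2% trimmed mean was the same on all 6 arrays. Signals were floored at 1, taken to log2 and centred, per array, on kept 2-copy genes (their median). The filter was the 40th percentile of probe set means (log2 6.28). Of 22810 probe sets 13513 had 1 gene name. The brightest probe set stood for a gene.

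Genes were fitted with limma 3.58.1 in R 4.3.3 (lmFit, eBayes with an intensity trend, 3 groups in 1 fit of 7182 genes). There were 3 residual degrees of freedom, beside 14.7 prior degrees of freedom for the spread shared between genes. P-values are two-sided, adjusted after Benjamini and Hochberg over the 5469 2-copy genes. The fit was tested on simulated data. With 2 arrays a group, the smallest p of an exact permutation test is 0.333. The number of arrays limits the precision.

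The members and gene lists were chosen with earlier results of these data known. Given with their arrays are the 12 lowest members, those called, and the named ones; list genes are those called in either trisomic against WT. Alternatives were other scales, floors, filters, probe set rules and fits, arrays left out and a replicate block. No protein sequences were used, so homologs were not compared.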

Additional observations from a re-analysis of the deposited data

How the results depend on the processing

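The 53 members depended on the brightness filter, the arrays and the scale. The lowest deposited signal of a member was 51.4, so a floor of 16 could not change their signals and tests nothing. The rule found 99 genes without centring (50 of the 53 among them), 89 when centred on all expressed genes (43), 69 under quantile normalization (38), 226 without the filter (43) and 18 with the filter at the 60th percentile (18), at which only 19 of the 53 were still kept. With 1 array left out it found 53 to 103, of which 35 to 47 were among the 53. All 13 such alternatives were met by 6 members: ALN, AT1G21010, AT1G21550, AT1G55530, AT1G69840 and AT4G23910. All 813 recomputed AAA ratios of members were negative, and no support is read from that. With an array left out the rule fixes the sign, since both AAA arrays lay below both WT arrays. The floor of 16 and the other fits left the ratio itself unchanged. Of the 32 called members, 4 were called in every alternative in which they were kept: AT1G55530, AT1G69840, AT3G60420 and AT5G22580. In those scale and filter settings the median ratio to WT of the members was -0.77, -0.77, -0.75, -0.69 and -0.66 in AAA and -0.069, -0.12, -0.11, -0.10 and -0.026 in AAa. With 1 array left out it was -0.70 to -0.67 in AAA and -0.060 to 0.0080 in AAa.

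Genes called lower in AAA numbered 250 without centring, 239 centred on all genes, 226 under quantile normalization, 46 without the filter and 78 without the intensity trend, beside 139, and 52 to 111 with 1 array left out. Genes called higher were 51.7% of the calls, and 30.7%, 30.3% and 31.3% under the first 3 of these. Genes called lower in AAa numbered 617, 228 and 192 when centred on all genes, without the filter and without the trend, beside 378, and 152 to 321 with 1 array left out. With the replicate block 138 genes were called lower in AAA and 368 in AAa, 29 of them members in AAA. The labels do not say whether same-numbered arrays of the groups were grown or handled together. Deviations of same-numbered arrays correlated at -0.053, -0.046 and 0.045. Where a value moved, the cause was not tested. Without the filter limma called 9 members. The 21 members not called had mean signals of 79.5 to 221. The comparison with homologs was not run.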
